A study of Mus musculus with 10 samples.

Results

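Cardiac muscle genes were examined in whole lungs of P14 mice. The set held 10 genes that encode parts of the contractile apparatus and the calcium store of heart muscle, or a peptide that heart muscle secretes. They were chosen by symbol and function, as Myh6, Myh7, Myl7, Myl4, Actc1, Tnnt2, Tnni3, Nppa, Sln and Ryr2, from the 54532 genes of the deposited table. Of these, 7 had a mean of at least 0.5 FPKM over the lungs and were tested among 15388 genes. Nppa, Sln and Ryr2 were below that level and are described by their values. FPKM are sequenced fragments divided by gene length and by a size factor of each library.

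The lungs came from wild-type C57/BL6 pups. The IncPBF group (increased pulmonary blood flow, 5 lungs) had an aortocaval fistula made at P7 by puncturing the abdominal aorta into the inferior vena cava, and the sham group (5 lungs) had the same surgery without the puncture. All lungs were harvested at P14, and the methods describe perfusion with PBS to clear blood. Per lung, 16103423 to 20318525 fragments lay on genes. The labels name no litters, so the p-values measure the spread between these 10 lungs.

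In rodents, heart-type muscle does not end at the atrium. It continues as a sleeve around the pulmonary veins into the lung, and these cells contract with the heartbeat and use an atrial set of sarcomere proteins. In a sarcomere, myosin heavy and light chains form the motors of the thick filament, which pull on actin, and the troponin complex switches the thin filament on when calcium is released through the ryanodine receptor. A piece of atrium or ventricle left on the lung root carries the same RNAs, and in bulk RNA fewer muscle cells and less RNA per cell cannot be told apart.

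Of the 7 members that share the lung pattern described further on, 3 serve as examples, and motifs were not tested against that pattern. The bases before their start sites are shown. They are the 250 bases before the RefSeq start on GRCm38.p6, 5′ to 3′ on the strand of the gene, for Actc1 (chr2:114052876-114053125, minus strand), Myl7 (chr11:5898783-5899032, minus strand) and the upstream of 2 Tnnt2 starts (chr1:135836084-135836333, plus strand). Capitals mark matches to a CArG box, the site that serum response factor binds, in Actc1 and Myl7, to CATTCC, the core of the sites of TEAD factors, in Myl7 and Tnnt2, and to AGATAA on the minus strand in Tnnt2, a core that GATA factors bind.
Actc1: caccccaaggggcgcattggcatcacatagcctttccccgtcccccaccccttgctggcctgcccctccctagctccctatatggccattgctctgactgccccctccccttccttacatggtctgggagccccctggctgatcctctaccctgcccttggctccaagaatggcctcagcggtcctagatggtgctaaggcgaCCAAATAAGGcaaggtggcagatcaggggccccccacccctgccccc
Myl7: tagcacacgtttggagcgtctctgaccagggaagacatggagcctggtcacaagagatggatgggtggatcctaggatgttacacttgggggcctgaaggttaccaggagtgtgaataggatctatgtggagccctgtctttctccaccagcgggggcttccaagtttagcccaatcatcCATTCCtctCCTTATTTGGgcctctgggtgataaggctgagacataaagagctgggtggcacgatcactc
Tnnt2: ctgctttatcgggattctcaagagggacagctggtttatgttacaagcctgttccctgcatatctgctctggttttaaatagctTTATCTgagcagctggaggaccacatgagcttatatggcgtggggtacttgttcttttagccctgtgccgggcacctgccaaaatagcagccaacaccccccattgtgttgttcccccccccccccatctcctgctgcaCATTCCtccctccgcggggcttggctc

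The motifs were searched on both strands in the same 250 bases of 32851 promoters, among them 11 of members. Tnnt2 and Myh7 had 2 of these each, the 2 of Myh7 overlapping, and Sln had none. A CArG box lay in 2 of the 11, those of Actc1 and Myl7, and in 1.47% of all promoters. CATTCC lay in 4 of the 11 (Myh6, Myh7, Myl7 and Tnnt2) and in 12.6% of all. AGATAA lay only in the upstream one of Tnnt2 (9.99% of all), TATAAA only in that of Nppa (12.4% of all), and the MEF2 site in 0 of the 11 (0.508% of all). Those of Myl4 and Tnni3, which share the lung pattern, held none of these motifs. Among the members without that pattern, Myh7 held CATTCC, Nppa held TATAAA and Ryr2 held none. None of the capitalised matches shown overlap each other. The CArG box began 47 bases before the start of Actc1 and 61 before that of Myl7.

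The alpha and beta heavy chains, Myh6 and Myh7, lie next to each other on chromosome 14 and share long stretches of coding sequence. Of all 50-base windows of the Myh6 coding sequence 23.8% occur unchanged in Myh7, and the longest shared run has 245 bases. It is shown, in capitals with its flanks in lower case, because fragments from it fit both genes and the way the authors assigned them is not given in the sources used here. It covers bases 4246 to 4490 of the Myh6 coding sequence.
Myh6: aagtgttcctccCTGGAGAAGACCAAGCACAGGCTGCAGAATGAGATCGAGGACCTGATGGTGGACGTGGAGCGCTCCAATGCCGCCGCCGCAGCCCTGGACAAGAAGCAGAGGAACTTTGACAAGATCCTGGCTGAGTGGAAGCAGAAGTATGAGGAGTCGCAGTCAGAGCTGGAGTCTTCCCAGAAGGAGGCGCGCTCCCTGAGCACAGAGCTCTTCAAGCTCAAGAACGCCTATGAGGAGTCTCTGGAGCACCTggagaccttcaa

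Myh6, the fast atrial and adult mouse heavy chain (chr14:54941921-54966927, minus strand), was the most uneven gene of the set together with Myl7. In the IncPBF lungs 1 to 5 its levels were 0.0385, 2.58, 0, 2.42 and 0.00716 FPKM, from 5, 325, 0, 281 and 1 fragments. In the sham lungs 1 to 5 they were 0.116, 0.521, 0.395, 0.303 and 0.256 FPKM. IncPBF lungs 2 and 4 were thus above every sham lung, and IncPBF lungs 1, 3 and 5 were below every sham lung. The group means were 1.01 ± 1.36 (SD, n = 5) and 0.318 ± 0.152 FPKM (SD, n = 5). On the log2(FPKM + 0.1) scale, on which all fold changes here are given and the changes of low genes are understated, the difference was 0.01 (SE 1.00, limma adjusted p = 0.993).

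Myh7, the slow heavy chain (chr14:54970684-54994626, minus strand), did not follow Myh6. Its levels were 1.52, 1.75, 1.70, 1.60 and 1.86 FPKM in the IncPBF lungs and 2.32, 1.68, 1.23, 1.95 and 2.28 FPKM in the sham lungs. The IncPBF lungs lay close together inside the range of the sham lungs, and lungs 2 and 4 did not stand out. The log2 fold change was -0.13 (SE 0.16, limma adjusted p = 0.576), with a 95% interval of -0.47 to 0.22. Within a lung, the log2 ratio of Myh7 to Myh6 was -0.53 and -0.57 in IncPBF lungs 2 and 4, 3.55 to 4.19 in the other lungs of that group and between 1.43 and 3.49 after sham surgery. The group difference in this ratio did not pass the test (difference -0.14, exact permutation p = 0.873, Benjamini-Hochberg adjusted over 4 ratios 0.881), but the difference turned to 0.96 with a pseudocount of 0.01.

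Myl7, the atrial regulatory light chain (chr11:5896637-5898782, minus strand), shared with Myh6 the high levels in IncPBF lungs 2 and 4. The levels were 0.0877, 10.6, 0.367, 11.8 and 0.816 FPKM in IncPBF lungs 1 to 5 and 0.661, 2.07, 0.540, 0.443 and 0.487 FPKM in sham lungs 1 to 5. The single fragment in IncPBF lung 1 is under the floor of 3 fragments used here, which is at most 0.295 FPKM for this short gene. IncPBF lungs 2 and 4 had 117 and 120 fragments, against 1 to 23 in the other 8 lungs. The log2 fold change of 0.98 (SE 1.07, limma adjusted p = 0.517) had a 95% interval from -1.37 to 3.34. IncPBF lung 5 was above 4 of the 5 sham lungs, unlike for Myh6. With single lungs left out the log2 fold change ran from 0.26 without IncPBF lung 4 to 1.75 without IncPBF lung 1.

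Myl4, the atrial essential light chain (chr11:104550663-104595753, plus strand), was present in every lung. It had 1.34, 2.17, 1.14, 2.44 and 1.07 FPKM in the IncPBF lungs and 0.745, 1.11, 1.04, 1.23 and 1.18 FPKM in the sham lungs. IncPBF lungs 2 and 4 were again the highest, while lungs 3 and 5 lay within the sham range. With adjustment over all genes it did not pass (log2 fold change 0.52, SE 0.23, limma adjusted p = 0.111). The unadjusted limma p was 0.0473 and the exact permutation test on the log2 values gave p = 0.0952, where the smallest p that 5 lungs against 5 allow is 0.00794. Without IncPBF lungs 2 and 4 its log2 fold change was 0.16 (limma adjusted p = 0.598).

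Actc1, cardiac alpha-actin of the thin filament (chr2:114047282-114053548, minus strand), was by far the highest member per length. It reached 44.5, 64.9, 31.3, 79.7 and 37.4 FPKM in the IncPBF lungs and 31.8, 41.4, 43.3, 24.7 and 6.42 FPKM in the sham lungs. It made up 57.7% to 91.2% of the summed FPKM of the 10 genes in a lung. Lungs 2 and 4 were the highest here too, but IncPBF lungs 1, 3 and 5, with 1, 4 and 10 fragments of Myl7, still held 31.3 FPKM or more. The log2 fold change was 0.97 (SE 0.47, limma adjusted p = 0.139), and it was 0.49 without sham lung 5, the lowest lung (adjusted p = 0.204). No 50-base window of its coding sequence occurs in those of skeletal actin Acta1 or smooth muscle actin Acta2.

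Tnnt2 (chr1:135836354-135852260, plus strand), the tropomyosin-binding subunit of cardiac troponin, had 0.574, 1.50, 0.196, 2.21 and 0.410 FPKM in the IncPBF lungs. The sham lungs had 0.482, 0.835, 0.816, 0.459 and 0.0593 FPKM. Tnni3 (chr7:4518305-4524229, minus strand), the inhibitory subunit, had 0.451, 1.60, 0.525, 1.94 and 0.584 FPKM in the IncPBF lungs and 0.216, 0.617, 1.03, 0.583 and 0.306 FPKM in the sham lungs. Both subunits were highest in IncPBF lungs 4 and 2, in that order, and the remaining IncPBF lungs mixed with the sham lungs. The log2 fold changes were 0.62 for Tnnt2 (SE 0.62, limma adjusted p = 0.484) and 0.70 for Tnni3 (SE 0.46, limma adjusted p = 0.264). For Tnnt2 it was 0.18 without sham lung 5, its lowest lung, 0.24 without IncPBF lung 4 and 0.99 without IncPBF lung 3. The gene model of Tnnt2 in the table is 7752 bases long against 1200 in its longest coding transcript, and that of Tnni3 2063 against 912, so these FPKM are lower than per mature transcript. The same holds for Myl4 (4637 against 943), Ryr2 (28790 against 16814) and Myh7 (8616 against 6230), and hardly for Actc1 (1618 against 1473). Levels are thus not strictly comparable between members. Tnni3 shares 86 exon bases with Dnaaf3 on the same strand.

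Sln, which encodes sarcolipin, an inhibitor of the calcium pump in atrial muscle (chr9:53850164-53854560, plus strand), had 12 fragments in IncPBF lung 2 and 12 in lung 4. It had 2 fragments in sham lung 2 and 0 in each of the other 7 lungs, where a count of 0 allows up to 3 fragments, at most 0.132 FPKM. The 2 lungs with Sln above this floor are thus those with the most Myl7 and Myh6. Ryr2 (chr13:11553102-12106945, minus strand), the cardiac calcium release channel, had 0.217, 0.256, 0.278, 0.310 and 0.266 FPKM in the IncPBF lungs and 0.201, 0.203, 0.280, 0.160 and 0.140 FPKM in the sham lungs. Ryr2 was even across lungs, from 70 to 159 fragments each, and the groups overlapped (difference 0.31 on the log2 scale, exact permutation p = 0.0556).

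Nppa, which encodes the atrial natriuretic peptide released by stretched atrial muscle (chr4:148000722-148002079, plus strand), was at or under the floor in every lung. It had 1 fragment in IncPBF lung 1, 3 in sham lung 3 and 0 in the other 8 lungs, including the lungs high in Myl7. A count of 0 allows up to 3 fragments, which is at most 0.201 FPKM. Its exons share 532 bases with the antisense gene Gm13054, which had 10 fragments over all lungs. Nppb, the related B-type peptide gene, had 1 fragment in the sham lungs and 0 in the IncPBF lungs.

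**Figure D1:**
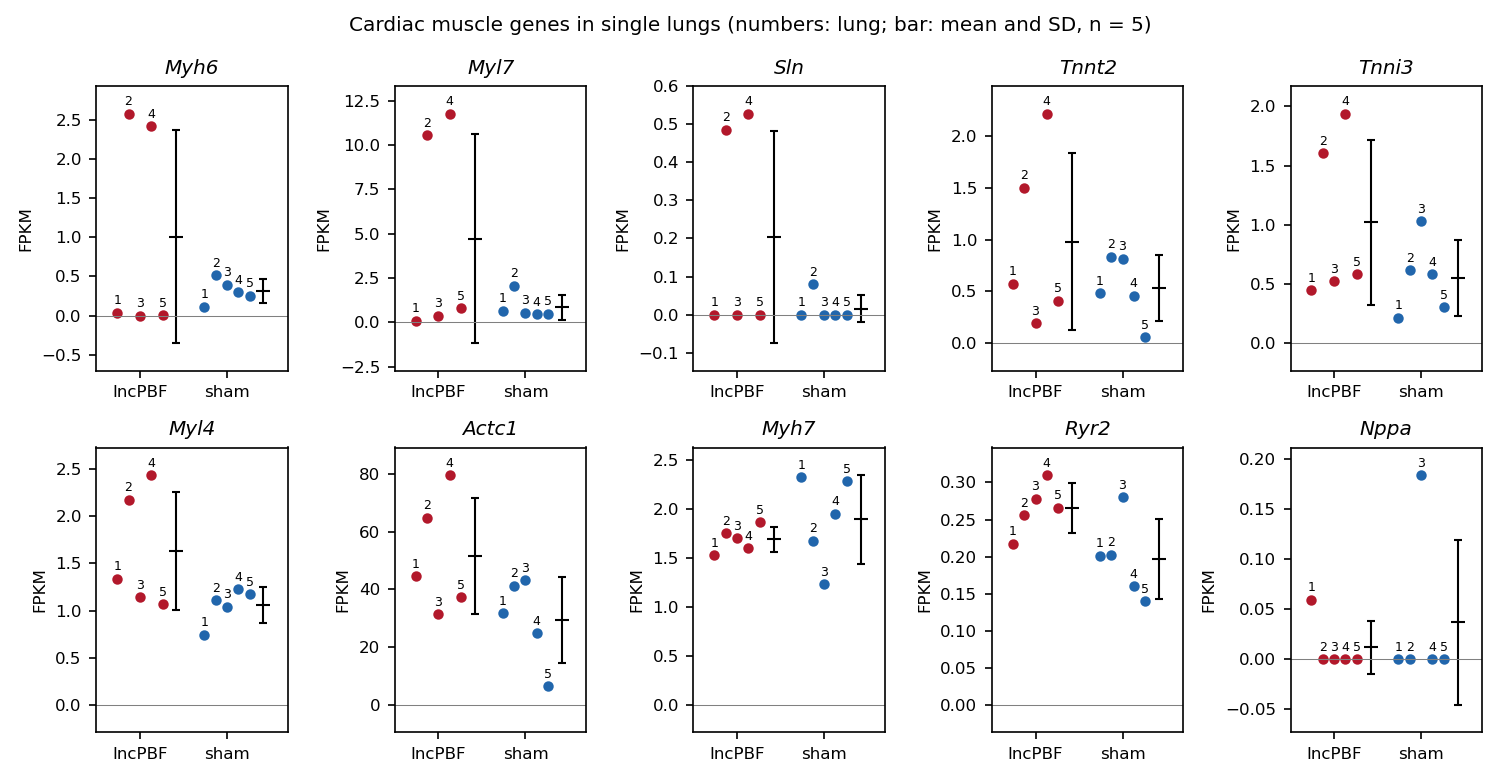
FPKM of each of the 10 cardiac muscle genes in each lung, with IncPBF in red, sham in blue, the lung number above each point and a bar for the mean and SD (n = 5), each panel with its own axis. IncPBF lungs 2 and 4 are the highest points for Myh6, Myl7, Sln, Tnnt2, Tnni3, Myl4 and Actc1, while Myh7, Ryr2 and Nppa lack this pattern; bars reaching below 0 are SDs larger than the mean.

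As a group, 0 of the 7 members tested passed an adjusted p of 0.05 in limma in either direction, and 1 (Myl4) had an unadjusted p under 0.05. Of all genes tested 32.3% were called, 16.1% higher and 16.2% lower in IncPBF, and 43.2% had an unadjusted p under 0.05. With limma-voom on the recovered fragments 0 members passed and 2 had an unadjusted p under 0.05 (Actc1 and Myl4). The groups overlapped in all 10 members, whereas 23.2% of the genes tested did not overlap between groups. The median log2 fold change of the 7 members was 0.62, beside 0.01 for all genes tested. The median of the members turned to -0.12 without IncPBF lungs 2 and 4 and to -0.15 with the log2 level of Xist in the fit. The 95% intervals of 6 of the 7, all but Myh7, extend past 1 on the log2 scale, so differences of that size were not resolved at this spread.

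The members differed mostly between lungs of the same group. The within-group SD of log2 values in the IncPBF lungs was 2.70 for Myl7 and 2.48 for Myh6, against a median of 0.129 over all genes tested. Only 0.0455% and 0.110% of the genes tested had a larger SD in that group. Myh7 was at the other end, with an SD of 0.106, exceeded by 62.8% of the genes tested. In the sham group the SD was 0.820 for Myl7, 0.573 for Myh6 and 1.12 for Actc1, against a median of 0.166.

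IncPBF lungs 2 and 4 were the 2 highest of the 10 lungs in 7 of the 10 members, and in 4.01% of all genes tested. These lungs were picked out after the values were seen, so this is a description with no test. The same order held for 12 of the 23 genes of the sarcomere and Z-disc list, among them the ventricular light chain Myl3, the Z-disc genes Csrp3, Actn2 and Ldb3, and the troponin C gene Tnnc1. Csrp3 had 29 and 41 fragments in IncPBF lungs 2 and 4 and 0 to 6 in the other lungs. It also held for 4 of the 22 genes of calcium handling and excitation (Casq2, Cav3, Jph2 and Kcnj5), of which the calcium store gene Casq2 had 22 and 19 fragments against 0 to 5. The order was not limited to heart-type muscle. It held for 4 of 12 smooth muscle genes (Actg2, Cnn1, Kcnmb1 and Tpm2) and 5 of 14 genes of striated muscle metabolism. Among cardiac transcription factors it held for 3 of 14, among skeletal muscle genes for 1 of 22 and among lung markers for 0 of 8.

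**Figure D2:**
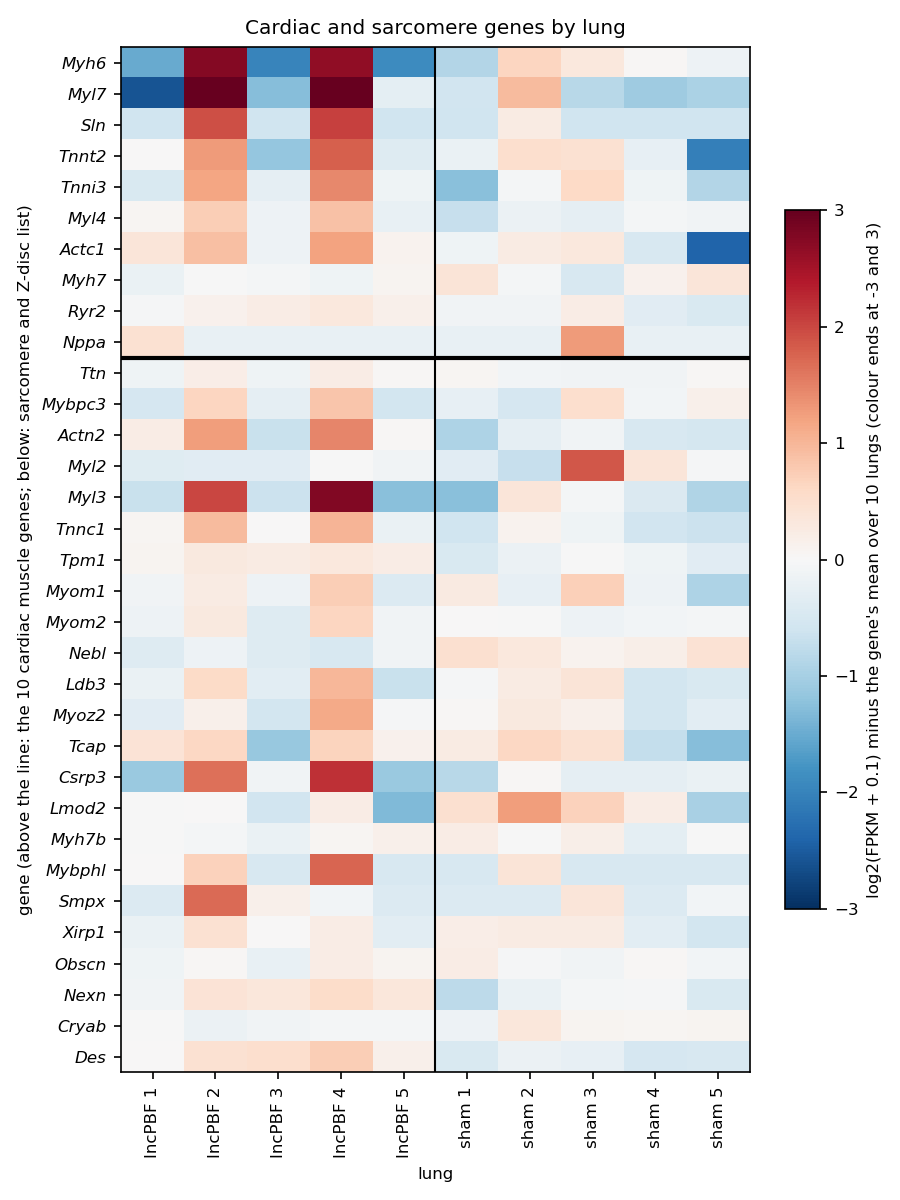
Heat map of log2(FPKM + 0.1), centred on the mean of each gene over the 10 lungs, for the 10 members (above the line) and the 23 genes of the sarcomere and Z-disc list (below it), with lungs in columns and colour from blue (lower) to red (higher). The columns of IncPBF lungs 2 and 4 are red for 7 of the members and for Myl3, Csrp3, Actn2 and Tnnc1, and sham lung 5 is deep blue for Tnnt2 and Actc1.

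Chamber markers differed among themselves. Irx4, a ventricular transcription factor, and Bmp10, a factor of atrial muscle, were at 0 fragments in all 10 lungs. The ventricular light chain Myl2 had 0 to 4 fragments in 9 lungs and 18 in sham lung 3, and was at 1 and 2 fragments in IncPBF lungs 2 and 4. Myl3, the ventricular essential light chain, went the other way, with 33 and 54 fragments (0.861 and 1.53 FPKM) in IncPBF lungs 2 and 4 and 0 to 8 in the other lungs. The atrial genes Mybphl and Kcnj3 had at most 8 and 3 fragments in a lung. Kcnj5 reached 40 fragments in IncPBF lung 2 and 8 to 20 in the others. Gja5, which also marks arterial endothelium, was at 6.55 to 17.1 FPKM. The summed FPKM of the 3 ventricular genes ran from 0.0494 to 1.59 with a fistula and from 0.0286 to 0.620 after sham surgery. Whether the RNA in lungs 2 and 4 came from vein sleeves or from heart tissue at the lung root was not tested. Myl7, Myh6 and Sln, grouped here by their values, were near 0 in several lungs that held Actc1, Myl4, Myh7 and Ryr2. Tnnt2 and Tnni3 were also present in every lung, with 8 to 296 and 8 to 69 fragments. The levels of the 10 genes thus did not move as 1 block, and they are called cardiac muscle genes here rather than genes of pulmonary veins.

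The lungs also differed in their airway and smooth muscle RNA. Sham lung 5 was the lowest lung in 3 of the 10 members, beside 14.1% of all genes tested, and it stood apart in airway genes. Scgb1a1, of club cells, was 128 FPKM there against 4802 to 11743 FPKM in the other lungs, and Foxj1, of ciliated cells, 0.285 against 6.56 to 16.7 FPKM. Cnn1, a smooth muscle calponin, was 0.756 FPKM in that lung and highest in IncPBF lungs 4 and 2, at 23.6 and 15.4 FPKM. Actc1 had the same lowest lung and the same highest 2. With the mean log2 level of Foxj1 and Scgb1a1 as a covariate, chosen after the values were seen, the log2 fold change of Actc1 was 0.49 (limma adjusted p = 0.0664) and that of Tnnt2 0.13 (adjusted p = 0.868). Of the 12 smooth muscle markers 7 rose and 0 fell (beside 16.1% higher and 16.2% lower of all genes tested, and 5 rose without IncPBF lungs 2 and 4, and 0 with the log2 level of Xist in the fit), Acta2 by 1.57 (limma adjusted p = 0.000783) and Actg2 by 1.65 (adjusted p = 0.00234), and the summed level of the list was 425 to 727 FPKM with a fistula and 203 to 345 FPKM without. Their part in the levels of Actc1 was not tested.

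**Figure D3:**
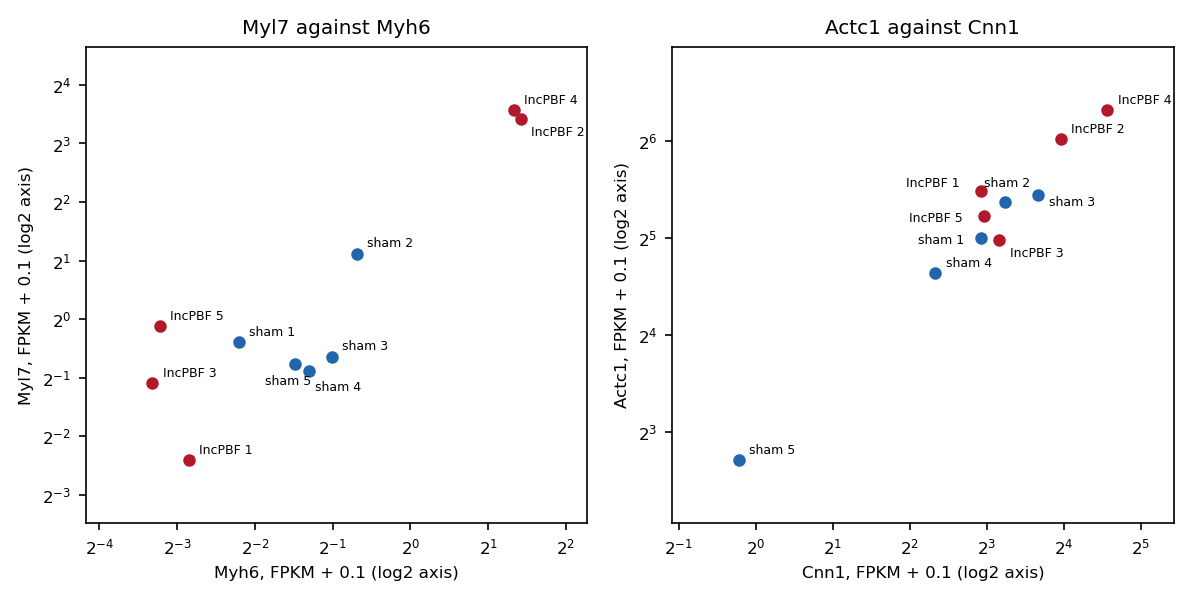
Levels in single lungs as FPKM + 0.1 on log2 axes, IncPBF in red and sham in blue, for Myl7 against Myh6 (left) and Actc1 against Cnn1 (right). On the left, IncPBF lungs 2 and 4 stand alone at the upper right and the other IncPBF lungs lie to the left of the sham lungs; on the right, sham lung 5 is at the lower left.

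Sex-linked genes moved with the groups. Xist, the RNA that coats a silenced X chromosome, lay between 52.4 and 66.5 FPKM in IncPBF lungs 2 to 5 and did not exceed 0.0770 FPKM in any other lung. The Y-linked Ddx3y was the reverse, with 18.6 to 24.6 FPKM in those other lungs, while no lung high in Xist exceeded 0.00926 FPKM. Sex and surgery go together in all lungs but IncPBF lung 1, so their effects can hardly be told apart. That lung had less Myl7 and Myh6 than any sham lung, with 1 and 5 fragments. The lungs high in Xist included both those with much Myl7 (2 and 4) and those with little (3 and 5). With the log2 level of Xist in the fit the log2 fold changes were -1.97 for Myl7 (limma adjusted p = 0.511), -1.50 for Myh6 (adjusted p = 0.662) and 0.78 for Actc1 (adjusted p = 0.651), and the counts over all genes fell to 328 higher and 413 lower. In that fit only IncPBF lung 1 separates sex from surgery. The SE rose from 1.07 to 1.54 for Myl7 and from 0.47 to 0.85 for Actc1. Whether calls lost in that fit reflect sex or the larger errors was not tested.

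Genes that work with the members were taken from 5 lists, whose counts stand beside the 16.1% of all genes tested that were called higher and the 16.2% called lower. Of the 23 sarcomere and Z-disc genes 9 were tested, 3 rose and 1 fell. Des, the intermediate filament of all muscle, rose from 27.5 ± 2.86 to 46.7 ± 9.38 FPKM (SD, n = 5 each, log2 fold change 0.74, limma adjusted p = 0.00149). Nexn, an actin-binding protein of the Z disc, rose by 0.62 (adjusted p = 0.0115), Tpm1, a tropomyosin, by 0.45 (adjusted p = 0.00238), and Nebl, a nebulin relative, fell by 0.60 (adjusted p = 0.000833). These 4 are also expressed outside the heart. The small heat shock protein gene Cryab, the highest of the list, was 110 ± 4.70 and 124 ± 15.1 FPKM (adjusted p = 0.151).

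Of 22 genes of calcium handling and excitation, 12 were tested, 6 rose and 2 fell. Jph2, which tethers the sarcoplasmic reticulum to the cell membrane, was 17.6, 17.7, 16.9, 17.7 and 16.7 FPKM in the IncPBF lungs and 8.51, 10.5, 10.3, 10.6 and 8.58 FPKM in the sham lungs. The groups did not overlap, and lungs 2 and 4, though the 2 highest, exceeded the other IncPBF lungs by little (log2 fold change 0.84, SE 0.07, limma adjusted p = 2.37e-05). Cav3, the caveolin of muscle, rose by 1.35 (adjusted p = 0.00184), and Gja5, a gap junction protein of atrium and arteries, by 0.90 (adjusted p = 0.000956). Popdc2 fell by 0.55 (adjusted p = 0.0155) and Kcnq1, a potassium channel, fell by 0.42 (adjusted p = 0.00675). The calcium pump gene Atp2a2, the highest of the list, was 50.1 ± 2.48 and 46.5 ± 3.07 FPKM (adjusted p = 0.178). Pln, the phospholamban gene, was at 2 to 15 fragments per lung and was not tested.

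Of 8 genes of the natriuretic peptide pathway and stretch, 5 were tested, 1 rose and 4 fell. Beside Nppa and Nppb, the C-type peptide gene Nppc had 0 to 5 fragments in a lung, above 3 only in sham lungs 4 and 5. The receptors were expressed in every lung. Npr3, the clearance receptor, lay between 9.27 and 16.8 FPKM in the IncPBF group, all below the 17.9 to 23.7 FPKM of the sham group, and fell by 0.71 (limma adjusted p = 0.00249). Npr1, the receptor of the Nppa product, was 26.0 ± 1.59 and 34.2 ± 2.05 FPKM and fell by 0.39 (adjusted p = 0.000606). The peptidase Mme fell by 0.45 (adjusted p = 0.00466). Ankrd1, a stretch-responsive gene of muscle and other cells, rose by 0.62, from 3.26 ± 0.233 to 5.11 ± 0.811 FPKM (adjusted p = 0.00115).

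Of 14 cardiac transcription factors, 7 were tested, 3 rose and 2 fell. Myocd, the coactivator of serum response factor in cardiac and smooth muscle, rose by 0.77 (limma adjusted p = 0.00584), and Srf itself by 0.51 (adjusted p = 0.000113). Mef2a fell by 0.31 (adjusted p = 0.00265) and Gata6 fell by 0.21 (adjusted p = 0.0224). Tbx5, the highest, was 23.3 ± 1.78 and 24.9 ± 3.20 FPKM (adjusted p = 0.457), and Nkx2-5, which marks cardiac muscle more strictly, had at most 1 fragment in a lung. Of 14 genes of striated muscle metabolism 9 were tested, 2 rose and 2 fell, with Fabp3, a fatty acid binding protein, at 0.92 (adjusted p = 0.0181), Pygm at 0.30 (adjusted p = 0.0292), Cox6a2 at -0.74 (adjusted p = 0.00470) and Pgam2 at -0.41 (adjusted p = 0.0196). With the log2 level of Xist in the fit the calls left among these 5 lists were the rises of Jph2, Cacnb2, Srf and Mef2c. Without IncPBF lungs 2 and 4 the calls of Nexn, Fkbp1b, Myocd, Gata6, Fabp3 and Pygm were lost, and without sham lung 5 those of Slc8a1 and Fkbp1b.

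**Figure D4:**
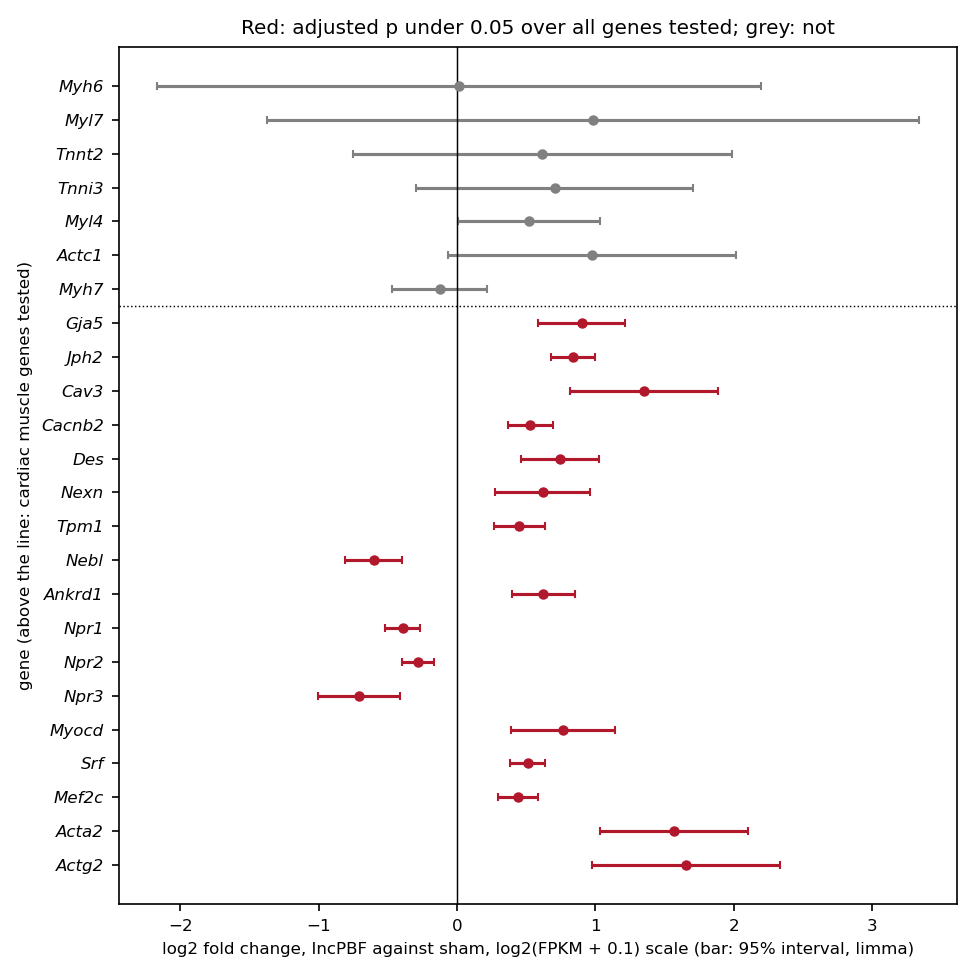
Log2 fold changes of IncPBF against sham on the log2(FPKM + 0.1) scale with 95% intervals from limma, for the 7 members tested (above the dotted line) and for 17 genes of the lists chosen among those called (below it), red where the adjusted p was under 0.05. The intervals of Myh6, Myl7 and Tnnt2 are the widest shown, and those of all members except Myl4 cross 0.

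Marker lists of other tissues were read beside these genes and beside the same 16.1% higher and 16.2% lower of all genes tested. With the log2 level of Xist in the fit every call of the skeletal, mesothelial, erythroid and lung lists was lost and both venous calls remained. A lost call there was not always a smaller change, since the errors were larger. The log2 fold change of the erythroid gene Alas2 went from -1.67 (SE 0.45) to -2.43 (SE 0.74). That of the skeletal gene Casq1 went from 0.88 (SE 0.27) to 0.64 (SE 0.47). Of 22 skeletal muscle genes 6 were tested, 2 rose and 0 fell, Casq1 by 0.88 (limma adjusted p = 0.0278) and Tnnt1 by 0.50 (adjusted p = 0.0314), and both calls were lost without sham lung 5 or without IncPBF lungs 2 and 4. Acta1, skeletal actin, peaked in IncPBF lung 5 with 4.23 FPKM against 1.49 or less elsewhere, so it did not share the order of the members. Of 5 genes of venous endothelium 0 rose and 2 fell, Slc6a2 by 1.55 on the log2 scale (adjusted p = 4.71e-05) and Vwf by 0.67 (adjusted p = 9.42e-05). All 3 of the mesothelial genes tested fell, which was lost without IncPBF lungs 2 and 4, of 5 erythroid genes 3 fell, and of 8 lung markers 0 rose and 4 fell. The summed lung markers were 14971 to 25733 FPKM in a lung, and the fat and thymocyte genes summed to at most 1.85 and 0.511 FPKM.

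By the correlation of log2 levels with the mean of the members over the 10 lungs, the 10 nearest of the other genes tested were Ntf3, Arl3, B230118H07Rik, Tnnc1, Ift20, Ldb3, Sh3bgr, Gm14327, Ropn1l and Selenok. Pearson's r ran from 0.861 to 0.946. These points share their libraries, and IncPBF lungs 2 and 4 were the 2 highest lungs for all of these genes except Selenok. Arl3 and Ift20 are known from cilia and ranged only from 25.9 to 34.0 and from 25.0 to 34.2 FPKM. Ropn1l varied more, from 0.480 to 2.18 FPKM. Tnnc1, the partner of the troponin subunits above, ranged from 0.717 to 2.51 FPKM (limma adjusted p = 0.0528 between the groups).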

How the data were processed

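Bulk RNA-sequencing of P14 lungs covered 5 IncPBF and 5 sham lungs. For RNA isolation the methods name a column kit and the labels Trizol. NEBNext libraries were sequenced on a NovaSeq instrument. The authors deposited FPKM per gene and lung together with the gene length. The submitters' processing notes name Bowtie 0.12.2 and the builds GRCm38, mm10 and hg38 without roles, and the counter is not given in the sources used here. The 5 table columns of fistula lungs are abbreviated differently from the titles. They were assigned to the IncPBF group, and lungs are numbered by column.

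The coordinates of 98.3% of the shared genes equal those of GENCODE M21 on GRCm38. FPKM times gene length was divided by the smallest positive such product of each lung, which was taken as a single fragment. This gave whole numbers of fragments for over 99.9% of values (tolerance 0.02). Limits from counts cover counting error only. Genes reaching a mean of 0.5 FPKM entered limma 3.58.1 (lmFit, eBayes with trend, R 4.3.3) as log2(FPKM + 0.1), two-sided, Benjamini-Hochberg over all genes. This was tested on simulated data, with changes only in genes of many fragments and less spread than most members had. That test does not show how the fit behaves for members with few fragments or uneven lungs. Ratios and single values were compared by exact two-sided permutation over 252 assignments.

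The members and gene lists were chosen with earlier results of these data known. Named were the members, the chamber markers, Nppb, Ankrd1, Pln, Acta1 and Acta2, the 2 largest called rises and falls and the highest gene of a list, and the 10 genes nearest to the members. For the venous, mesothelial, erythroid, lung, fat and thymocyte lists only some of these are given. Other genes named were chosen after their values were seen. Alternatives were other pseudocounts, filters and scalings, the replicate number as a block, no trend, an Xist covariate, limma-voom on the fragments, each lung left out, and 2 chosen after the data were seen, an airway covariate and IncPBF lungs 2 and 4 left out together. Sequences are from RefSeq (promoters) and GENCODE (coding). Python 3.11.15, pandas 2.3.3 and matplotlib 3.10.9 were used.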

Additional observations from a re-analysis of the deposited data

Results flagged for a closer look

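In 30 sets of 5 lungs (the 10 members, their sum and 4 ratios, in each group) the gap between the highest or lowest lung and the next was compared with the range, and 4 exceeded Dixon's 95% critical value. The usual rate of 1 in 20 does not apply, since the sum and the ratios reuse the members. For Nppa in both groups and Sln in the sham group all other lungs were at 0, so any count would have been flagged. Sham lung 2 stood above the other sham lungs for Myl7, at 2.07 FPKM (23 fragments), and for Sln, at 0.0805 FPKM (2 fragments). Sham lung 3 stood out for Nppa at 0.184 FPKM and IncPBF lung 1 for Nppa at 0.0598 FPKM, from 3 and 1 fragments. Except for Myl7, these values are at or under the floor of 3 fragments.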

How the results depend on the processing

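No alternative moved a member past an adjusted p of 0.05. Over 158 values from 23 alternatives the lowest was 0.0614 (Myl4 without IncPBF lung 5). The sign of Myh6 was not stable: its log2 fold change was -1.09 with a pseudocount of 0.01, -0.019 after quantile normalization, -1.50 with the Xist covariate, -1.55 with limma-voom, -0.18 with the airway covariate, -1.79 without IncPBF lungs 2 and 4 (limma adjusted p = 0.0781), and -0.67 to 0.51 with each lung left out. Myl7 reversed to -1.97 with the Xist covariate and -0.90 without lungs 2 and 4. Tnnt2 reversed to -0.20 without lungs 2 and 4 and Tnni3 to -0.15 with the Xist covariate. The ratio of Sln to Myl7 turned to 0.75 and that of Myh7 to Myh6 to 0.96 with a pseudocount of 0.01, and with each lung left out they ran from -0.63 to 0.21 and from -0.65 to 0.54. The causes were not tested. The ratio of Nppa to Myl7 did not pass the test (difference -1.15, exact permutation p = 0.437). The difference was -0.95 and -1.19 with a pseudocount of 1 and 0.01. Since Nppa was at or under the floor in every lung, this ratio mostly follows Myl7 and says little about Nppa. The ratio of Myl2 to Myl7 differed by -1.45 (exact permutation p = 0.310).

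The counts over all genes, 2480 higher and 2490 lower, moved to 328 and 413 with the Xist covariate and to 1414 and 1385 without lungs 2 and 4. With each lung left out they were 1950 to 2535 and 1919 to 2699. With an equal FPKM total per lung they were 2921 and 1960, and with limma-voom 3653 and 1863. Lungs of the same number did not clearly deviate together (correlations -0.07 to 0.09, own number best in 2 of 5). No pairing by number was detected, but 5 lungs per group cannot exclude a shared litter or batch. With the replicate number as a block 2390 genes were called higher and 2482 lower, and 0 members. For the ratios the block gave exact p-values from 0.312 to 0.875, where 5 pairs cannot go below 0.0625. Depth limits Sln and Nppa, Myh6 in IncPBF lungs 1, 3 and 5, and Myl7, with 1 to 10 fragments in 7 lungs.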
